A study of Drosophila melanogaster with 18 samples.

Results

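The genes described here are named for the proteins of the cytosolic ribosome, and nearly all encode them. They were chosen by symbol, as the genes named RpL, RpS or RpLP with a number, with or without a letter or the ending -like, together with *sta* (*RpSA*) and *sop* (*RpS2*). This gave 88 of the 15602 genes of the expression table, 51 of the large subunit and 37 of the small subunit. The rule used no measured value. A further 5 genes of the annotation that fit the rule, *RpL19*, *RpL27A*, *RpL31*, *RpS10b* and *RpS12*, were not analysed here, as no row carried their current identifier. The spelling separates genes: *RpL37a* and *RpL37b* are paralogs (now *RpL37-1* and *RpL37-2*), and *RpL37A* is another protein.

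The ribosome joins a small subunit, which holds the mRNA and decodes it, to a large subunit, which forms peptide bonds and carries the tunnel through which the new chain leaves. Most of the proteins are present once per ribosome, and loss of a single gene copy of many of them gives the Minute phenotype of slow growth and short bristles in *Drosophila*. Several of the proteins have a second gene, and in flies some of these paralogs are known for expression in the germ line. Heat shock (HS) stops the synthesis of most proteins in *Drosophila* cells while HSP mRNAs are translated, and ribosome production is known to slow.

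RNA-seq was made from S2 cells, an embryo-derived *Drosophila* line with features of haemocytes. HS cells were kept at 37°C for 30 min, begun by adding the same volume of medium warmed to 48°C, and NHS cells were not heated. No RNAi was applied in either condition. There were 2 biological replicates of each condition, and the p-values below measure the spread among these 4 libraries of 1 cell line.

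Levels are FPKM, fragments scaled for transcript length and library size, so they can be compared between genes but are shares of the mRNA in a library, and an equal loss of all mRNAs does not show. FPKM summed to 923996 and 926922 in the HS libraries and to 831628 and 837852 in the NHS libraries. The least abundant genes, where 1 read is a visible step, gave depths of 59.9% and 68.5% for the HS libraries and 76.6% for NHS replicate 2, relative to NHS replicate 1. All 11 tested inducible HSP genes, with *Hsp26* the most abundant, passed an adjusted p of 0.05 in limma, each higher after HS, and took 5.45% and 4.64% of FPKM in the HS libraries, against 0.128% and 0.126% in the NHS libraries. Of 17 haemocyte markers 11 were tested, with *Pxn*, *crq*, *ush* and *srp* the most abundant, and *NimC1* and *NimC2* were at or near 0. Of these *drpr*, an engulfment receptor, was lower after HS (limma adjusted p = 0.046). The haemocyte markers summed to 403 and 476 FPKM after HS, against 402 and 508 FPKM in NHS cells. The sum does not show that some differed by replicate. *Hml* stood at 4.45 and 20.7 FPKM after HS, against 5.69 and 22.5 FPKM in NHS cells. *He* went the other way, at 5.36 and 1.21 FPKM after HS, against 5.97 and 1.09 FPKM in NHS cells.

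Of the 88 genes, 81 averaged 1 FPKM or more over the libraries and were tested, 47 of the large and 34 of the small subunit. *RpS5b* lay under that minimum. The other 6, *RpL15*, *RpL22-like*, *RpL37b*, *RpL10Aa*, *RpS28a* and *RpS28-like*, were listed at 0 in all 4 libraries. A value of 0 in this table can be a failed estimate, and *RpL15*, a protein of every ribosome, was among them.

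Ribosomal protein mRNAs were among the most abundant of the cell. The 74 members averaging 1000 FPKM or more, 43 of the large and 31 of the small subunit, were 74 of the 117 genes of the table at that level, and 62 members lay between 2000 and 8000 FPKM. All 5 genes of the table that averaged above 10000 FPKM over the 4 libraries were ribosomal protein genes. In HS replicate 1 *Hsp26*, *Hsp23* and *Hsp68* also exceeded that level, at 12838, 10860 and 10271 FPKM. They stood at 9713, 8092 and 9667 FPKM in HS replicate 2. Together the 88 genes took 45.1% and 46.6% of all FPKM in the HS libraries, against 42.7% and 43.2% in the NHS libraries. The means were 45.8 ± 1.03% after HS and 43.0 ± 0.367% in NHS cells (SD, n = 2 each). Both HS libraries lay above both NHS libraries. With 2 libraries in each condition an exact two-sided permutation test cannot go below p = 0.333, which is the value here (0.389 after Benjamini-Hochberg adjustment over 7 such comparisons).

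The large subunit took 30.6% and 32.0% of FPKM in the HS libraries, against 28.7% and 29.1% in the NHS libraries. The small subunit took 14.5% and 14.6% in the HS libraries, against 14.1% and 14.1% in the NHS libraries. The ranges did not overlap for either subunit. *RpL39* and *RpL41*, the 2 most abundant genes, held 9.06% and 10.3% of FPKM after HS, against 8.00% and 8.03% in NHS cells. Without these 2 genes the family took 36.1% and 36.2% after HS, against 34.7% and 35.2% in NHS cells, a difference of 1.17 percentage points in place of 2.85.

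**Figure D1:**
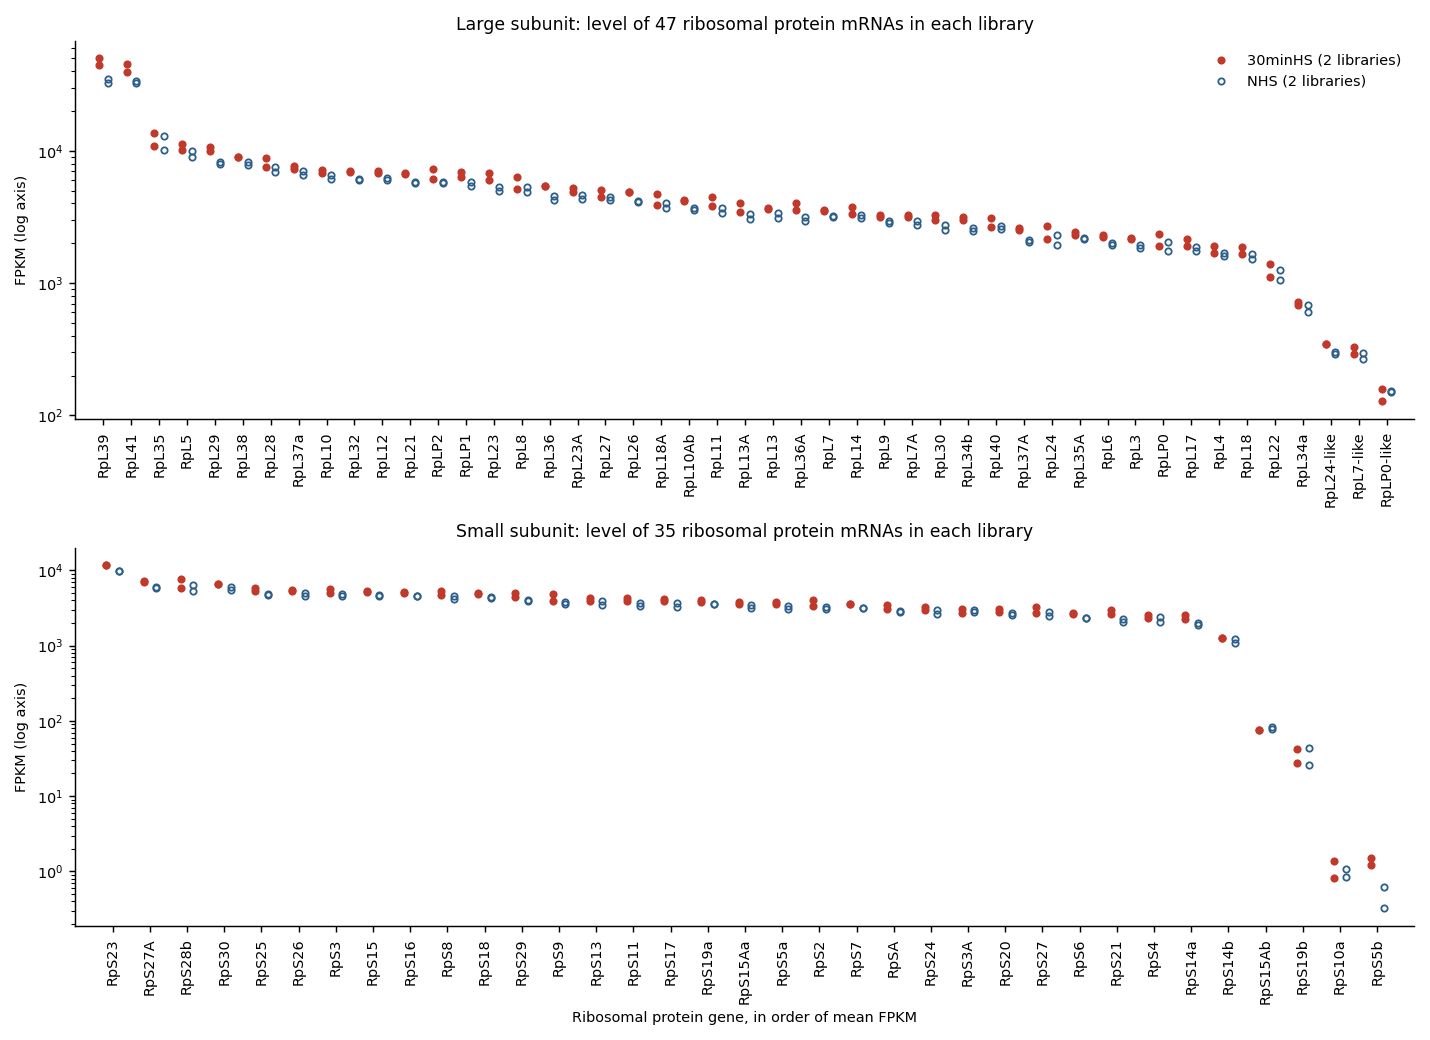
FPKM (log axis) of each ribosomal protein mRNA in the 2 30minHS libraries (filled) and the 2 NHS libraries (open), in order of mean level, for 47 large and 35 small subunit genes above 0. *RpL39* and *RpL41* stand above 30000 FPKM in every library, most genes lie between 2000 and 8000 FPKM, and the paralogs *RpS15Ab*, *RpS19b*, *RpS10a* and *RpS5b* lie under 100 FPKM.

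After 30 min of HS, no member passed the test with condition as the single term. At an adjusted p under 0.001 from limma, 0 of 81 were higher and 0 were lower, where 0.128% and 0% of all 7815 tested genes were. At 0.05 the count was again 0 in each direction, against 1.75% of all genes higher and 1.56% lower. The lowest adjusted p was 0.0823, for *RpL39*. With the replicate number as a block in the fit, 15 members were higher at 0.05, against 4.27% of all tested genes, and 0 at 0.001. At an unadjusted p under 0.05, 23 members (28.4%) were higher and 0 were lower, against 7.42% and 10.5% of all tested genes.

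The members' values nonetheless lay mostly on 1 side. The log2 fold change, HS minus NHS on the log2(FPKM + 1) scale, was above 0 for 79 of 81 members, with a median of 0.18 (quartiles 0.14 and 0.23), a fold of 1.13. The median of all tested genes was -0.02 (quartiles -0.17 and 0.13). Both HS libraries lay above both NHS libraries for 59 members (72.8%) and below them for 1, *RpS15Ab*, against 20.5% and 25.6% of all tested genes. The size of the members' median rests on how the libraries are scaled. With libraries brought to the same FPKM total it was 0.03, against -0.16 for all genes, with 60 members above 0 and 21 below. With the same median FPKM it was 0.23, against 0.03 for all genes. Its sign turned only after quantile normalization, which gives every library the same values by rank. There the median was -0.09 against 0.01, with 11 members above 0 and 70 below. Among the 43 other genes that averaged 1000 FPKM or more, the median was 0.09, and 19 had both HS libraries above both NHS libraries.

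**Figure D2:**
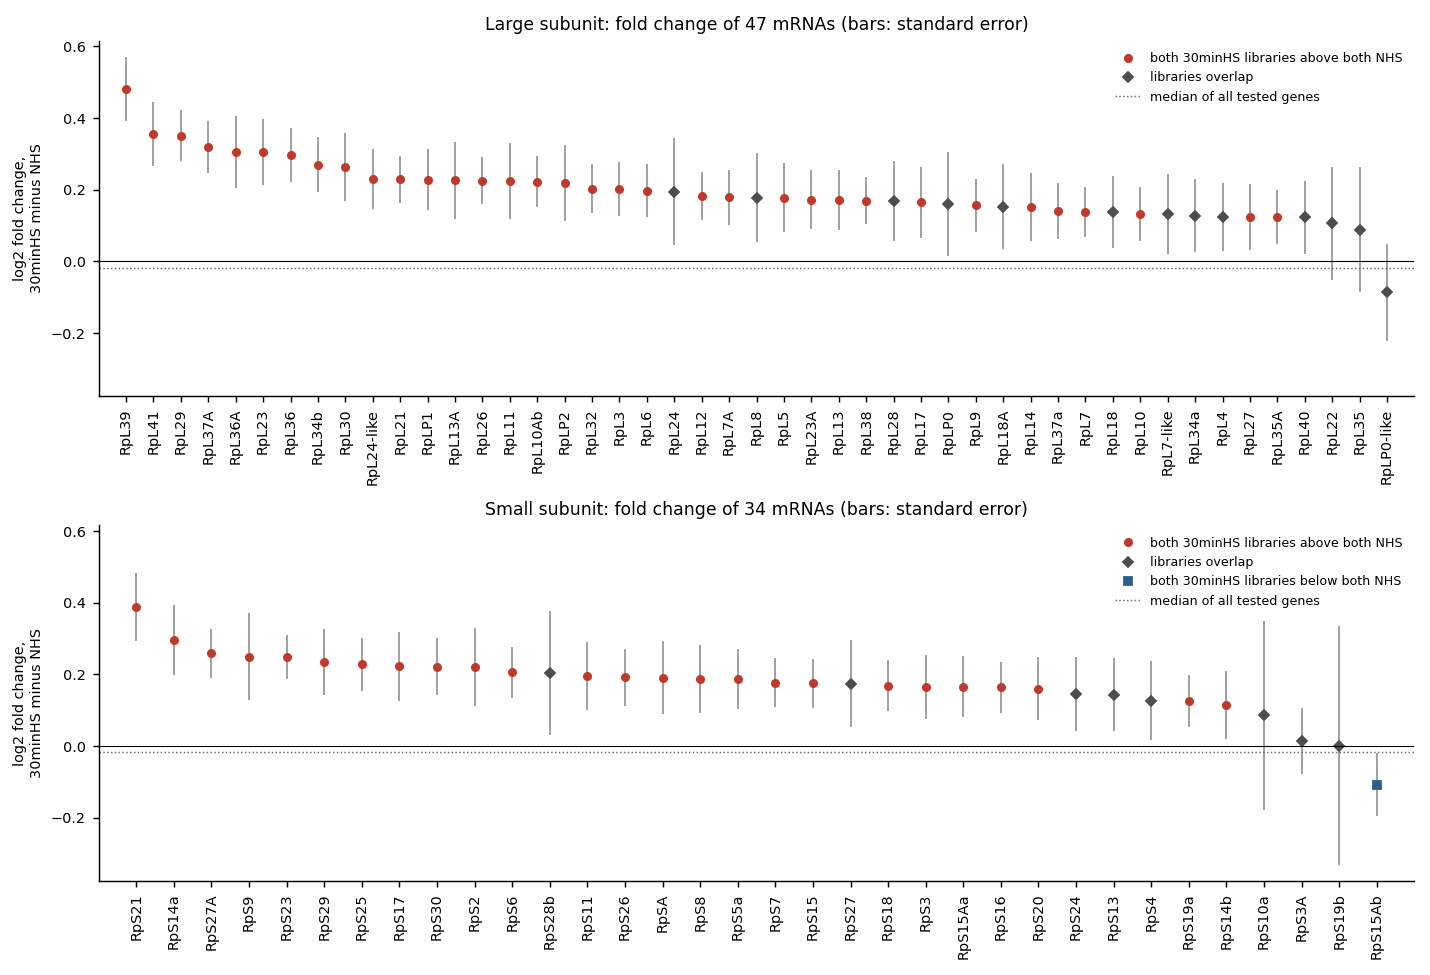
Log2 fold change, 30minHS minus NHS, of each tested member with its standard error, in falling order within each subunit. Of 47 large subunit genes 46 lie above 0, and of 34 small subunit genes 33 do. The dotted line is the median of all tested genes, -0.02.

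The subunits were close to each other. The median log2 fold change was 0.18 for both the large (46 of 47 above 0) and the small subunit (33 of 34 above 0). Groups did not overlap, with HS higher, for 34 of 47 large subunit genes (72.3%) and 25 of 34 small subunit genes (73.5%). For all tested genes this share was 20.5%. At an unadjusted p under 0.05 in limma, 16 large and 7 small subunit genes were higher, against 7.42% of all tested genes. Within each library, the mean log2 level of the tested large subunit genes exceeded that of the small subunit genes by 0.59 and 0.57 after HS, against 0.58 and 0.55 in NHS cells. The ranges overlapped, and the mean difference changed by 0.02 (0.58 ± 0.02 after HS and 0.56 ± 0.02 in NHS cells, SD, n = 2 each, exact two-sided permutation p = 0.667, 0.667 adjusted). A change of the subunits' balance was not detectable with these 4 libraries, which does not show that there was none. The excess is 1 of means: the small subunit mean includes *RpS15Ab*, *RpS19b* and *RpS10a*, which averaged 77.7, 35.0 and 1.03 FPKM. The median levels were close, at 3917 and 3853 FPKM (large) and 3856 and 3768 FPKM (small) after HS. In NHS cells they were 3344 and 3384 FPKM (large) and 3399 and 3305 FPKM (small).

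The 2 most abundant genes were among those with the highest fold changes. *RpL39*, a very small protein of the exit tunnel, stood at 44178 and 50299 FPKM after HS, against 32689 and 34854 FPKM in NHS cells. The means were 47238 ± 4328 and 33771 ± 1531 FPKM (SD, n = 2 each). Its log2 fold change of 0.48 was the highest of the family, with a standard error (SE) of 0.09 and a limma adjusted p of 0.0823. *RpL41*, which encodes one of the smallest proteins known, stood at 39539 and 45409 FPKM after HS, against 33813 and 32426 FPKM in NHS cells (log2 fold change 0.36, SE 0.09, adjusted p = 0.144). For both genes the HS libraries lay above the NHS libraries and also differed more between replicates. *RpL35*, next by level and a protein at the mouth of the exit tunnel, stood at 10787 and 13632 FPKM after HS, against 10106 and 12861 FPKM in NHS cells. Its replicate 2 was the higher in each condition, by more than the conditions differed.

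Among the remaining genes with the highest fold changes, *RpS21*, a small subunit protein, stood at 2928 and 2651 FPKM after HS, against 2220 and 2041 FPKM in NHS cells (log2 fold change 0.39, SE 0.09, limma adjusted p = 0.134). *RpL29*, a small protein of the large subunit, stood at 10621 and 10035 FPKM after HS, against 7921 and 8273 FPKM in NHS cells (0.35, SE 0.07, adjusted p = 0.0977). *RpL37A*, a zinc-binding protein of the large subunit, stood at 2540 and 2609 FPKM after HS, against 2100 and 2027 FPKM in NHS cells (0.32, SE 0.07, adjusted p = 0.121). None of the 3 had overlapping libraries.

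Several further genes, chosen after their values were seen, stood apart in the same way. *RpS23*, a protein of the decoding centre and the most abundant of the small subunit, stood at 11767 and 11601 FPKM after HS, against 9863 and 9811 FPKM in NHS cells (log2 fold change 0.25, SE 0.06, limma adjusted p = 0.141). *RpL36*, a small protein of the large subunit, stood at 5436 and 5377 FPKM after HS, against 4235 and 4574 FPKM in NHS cells (0.30, SE 0.08). *RpS6*, the protein that S6 kinase phosphorylates, stood at 2703 and 2623 FPKM after HS, against 2302 and 2314 FPKM in NHS cells (0.21, SE 0.07). In each the replicates of a condition lay closer together than the conditions did. The SE of the 81 members ranged from 0.06 to 0.33, with a median of 0.09, so a difference of the size of the family median is about 2 SE for a typical member.

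The lowest fold changes were those of 4 paralogs and *RpS3A*. *RpS15Ab* stood at 74.9 and 74.6 FPKM after HS, against 78.9 and 82.3 FPKM in NHS cells (log2 fold change -0.11, SE 0.09, limma adjusted p = 0.651), *RpLP0-like* and *RpS19b* at -0.09 and 0.00, and *RpS10a* at 0.09. *RpS3A*, a small subunit protein beside the mRNA exit, stood at 2736 and 3091 FPKM after HS, against 2816 and 2945 FPKM in NHS cells (log2 fold change 0.01, SE 0.09, adjusted p = 0.972). Its libraries overlapped, and it was the lowest of the 74 members at 1000 FPKM or more. *RpS3A* is the single member on chromosome 4, the small, largely heterochromatic chromosome. On the other arms the median ranged from 0.17 (X, 14 tested genes, and 3L, 12 genes) to 0.20 (2L, 17 genes), with 0.18 on 2R (17 genes) and on 3R (20 genes).

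Groups by role had medians from 0.17 to 0.22, next to 0.18 for the whole family. The P stalk, which recruits elongation factors, had log2 fold changes from 0.16 to 0.23 for its 4 genes. *RpLP1* stood at 6302 and 6887 FPKM after HS, against 5419 and 5835 FPKM in NHS cells. *RpLP2* stood at 7277 and 6131 FPKM after HS, against 5784 and 5698 FPKM in NHS cells. Both, and *RpL12* at the stalk's base with 6842 and 6990 FPKM after HS against 5984 and 6196 FPKM in NHS cells, had HS libraries above NHS libraries. *RpLP0*, the protein that anchors the other stalk proteins, stood at 2359 and 1901 FPKM after HS, against 2041 and 1760 FPKM in NHS cells, and overlapped.

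The 5S ribonucleoprotein, which carries the 5S RNA into the large subunit, is built on *RpL5* and *RpL11*. *RpL5* stood at 10071 and 11231 FPKM after HS, against 8892 and 9933 FPKM in NHS cells, and *RpL11* at 4447 and 3853 FPKM after HS, against 3709 and 3384 FPKM in NHS cells. Neither overlapped, and the fold changes were 0.18 (SE 0.10) and 0.22 (SE 0.11) on the log2 scale, or 0.10 to 0.26 and 0.12 to 0.33 without 1 library. The 6 tested proteins of the exit tunnel ranged from 0.09 (*RpL35*) to 0.48 (*RpL39*), with a median of 0.17. The 12 of the decoding centre and the mRNA path ranged from 0.11 (*RpS14b*) to 0.30 (*RpS14a*), with a median of 0.20. HS libraries lay above NHS libraries for 10 of these 12, against 20.5% of all tested genes. Among them *RpS2* (*sop*) stood at 3983 and 3373 FPKM after HS, against 3242 and 3052 FPKM in NHS cells. *RpSA* (*sta*), homologous to a laminin receptor of mammals, stood at 3505 and 3023 FPKM after HS, against 2919 and 2788 FPKM in NHS cells, also without overlap.

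There are 3 ribosomal proteins made as fusions with ubiquitin or a ubiquitin-like protein. *RpS27A* stood at 7220 and 6887 FPKM after HS, against 5936 and 5848 FPKM in NHS cells (log2 fold change 0.26, SE 0.07, limma adjusted p = 0.159). *RpS30* stood at 6578 and 6672 FPKM after HS, against 5422 and 5954 FPKM in NHS cells (0.22, SE 0.08). Neither overlapped. *RpL40* stood at 2666 and 3082 FPKM after HS, against 2569 and 2695 FPKM in NHS cells (0.12, SE 0.10, or 0.02 to 0.23 without 1 library) and overlapped. An exon of *RpS27A* overlaps *Ip259* on the same strand, so its reads may be shared. Of the polyubiquitin genes *Ubi-p63E* stood at 297 and 221 FPKM after HS, against 127 and 159 FPKM in NHS cells (log2 fold change 0.85, SE 0.20, adjusted p = 0.128), and *Ubi-p5E* overlapped.

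Proteins with a bacterial homologue (34 tested genes) had a median log2 fold change of 0.18, with both HS libraries above both NHS libraries for 28. Those without one, leaving out the -like genes (44 genes), had a median of 0.19, with 30 such genes. Of all tested genes, 20.5% had both HS libraries above both NHS libraries.

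The shortest mRNAs had the highest fold changes. *RpL39* (288 nt, the median of its annotated transcripts), *RpL41* (320 nt) and *RpL29* (329 nt) were the 3 shortest tested members and had 3 of the 4 highest values. The 16 tested members of at most 600 nt had a median of 0.28, and 15 of them had HS libraries above NHS libraries (20.5% of all tested genes did), while 10 were higher at an unadjusted p under 0.05 (7.42% of all). The median was 0.17 for 23 members over 600 and up to 700 nt, 0.18 for 29 over 700 and up to 1000 nt and 0.18 for 13 longer ones. These length classes were chosen after the values were seen, so the counts are a description. Over the 74 members of at least 1000 FPKM, the fold change and the log2 length had Pearson's r = -0.53 and Spearman's rho = -0.28, as a description over genes that share 4 libraries. Without *RpL39*, *RpL41* and *RpL29*, r was -0.32 and rho -0.19. The fold change had a relation of like size with the mean log2 level over the same 74 members (r = 0.42, rho = 0.27), and the 3 shortest mRNAs are among the 6 most abundant of the family, so length and level were not separated. Over 880 other genes of at least 100 FPKM, r was -0.02. FPKM divide by transcript length, and the part of length in these fold changes was not tested.

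**Figure D3:**
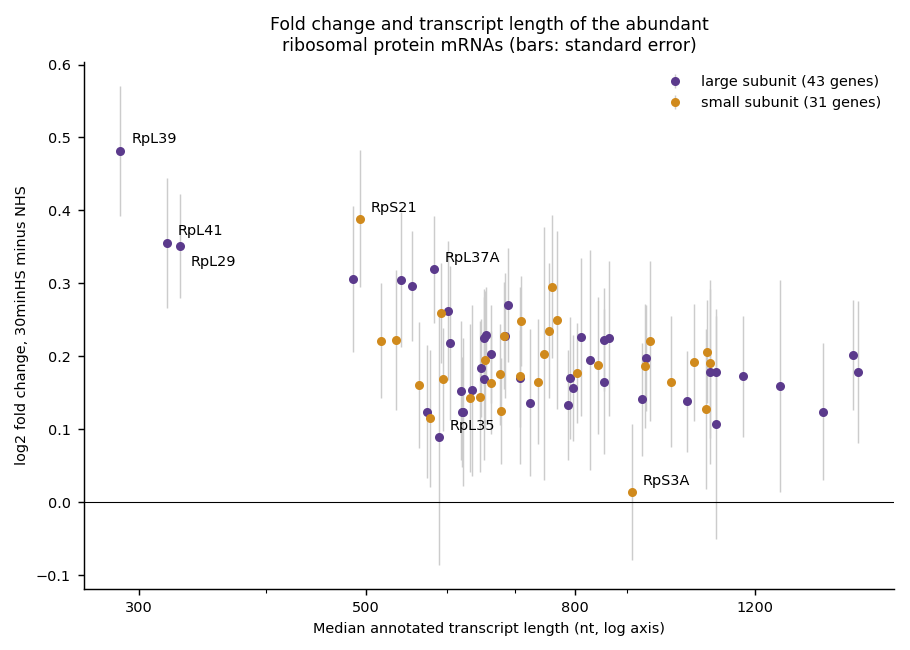
Log2 fold change, 30minHS minus NHS, with its standard error, against the median annotated transcript length (log axis) of 43 large and 31 small subunit genes averaging 1000 FPKM or more. *RpL39*, *RpL41* and *RpL29*, the 3 shortest, lie at 0.35 or above, and *RpS3A* lies at 0.01.

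The family holds 13 pairs of an a and a b gene or of a gene and its -like partner, over 25 genes. In 5 pairs the less abundant gene was listed at 0 in all 4 libraries, so a single gene was measured: *RpL22* (1103 and 1385 FPKM after HS, against 1051 and 1253 FPKM in NHS cells), *RpL37a* (7278 and 7694 FPKM after HS, against 6546 and 7033 FPKM in NHS cells), *RpL10Ab* (4264 and 4138 FPKM after HS, against 3536 and 3665 FPKM in NHS cells) and *RpS28b*. The last, with the partners *RpS28a* and *RpS28-like*, stood at 5772 and 7607 FPKM after HS, against 5257 and 6297 FPKM in NHS cells. *RpL22* and *RpS28b* overlapped, with replicate 2 the higher in each condition. *RpL22-like* is known from the fly germ line.

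In the other 8 pairs both genes were above 0. The less abundant gene, given as its share of the pair's FPKM, held from 37.5% of it in NHS cells (*RpS14b*) down to 0.0146% (*RpS5b*). The ratio within the pair is free of the scaling of a library to the extent that it acts on both genes alike. The log2 ratio differed between the conditions without overlap in 5 of the 8 pairs, lower after HS in 4 and higher in 1, but after quantile normalization in 1 and 4 of 7 pairs. Of all tested genes 46.1% had levels that did not overlap. That share is of the levels of single genes and carries library scaling, and none was computed for ratios. Under quantile normalization the HS minus NHS log2 ratio was 0.19 for *RpL34a*, 0.16 for *RpLP0-like* and 0.12 for *RpS15Ab*, which lay at -0.14, -0.25 and -0.27 on the deposited scale, and -0.08 for *RpS14b*, at -0.18 on that scale. Bringing the libraries to the same FPKM total or median scales both genes of a pair alike. It can change the ratio only through the 1 added to each level, so it is no check of the direction. The exact two-sided permutation p was 0.333, the smallest these libraries allow, for each of the 5, and 0.533 after Benjamini-Hochberg adjustment over 8 pairs.

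*RpS14a* and *RpS14b*, neighbouring and nearly identical genes on the X chromosome, were the most balanced pair. *RpS14b* held 35.8% and 33.5% of the pair after HS, against 36.8% and 38.2% in NHS cells. *RpS14a* stood at 2225 and 2526 FPKM after HS, against 1877 and 1987 FPKM in NHS cells (log2 fold change 0.30, SE 0.10, limma adjusted p = 0.229), and *RpS14b* at 1242 and 1271 FPKM after HS, against 1094 and 1231 FPKM in NHS cells (0.11, SE 0.09, adjusted p = 0.646, and 0.03 to 0.20 without 1 library). The sources do not say how reads that match both copies were divided, so the split between them is uncertain.

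*RpL34a* held 17.9% and 19.5% of its pair after HS, against 19.7% and 20.9% in NHS cells, ranges that nearly touched. It stood at 688 and 725 FPKM after HS, against 607 and 688 FPKM in NHS cells. *RpL34b* stood at 3154 and 2988 FPKM after HS, against 2480 and 2612 FPKM in NHS cells (log2 fold change 0.27, SE 0.08, limma adjusted p = 0.184).

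*RpS15Ab* held 1.93% and 2.06% of its pair after HS, against 2.26% and 2.55% in NHS cells. Its partner *RpS15Aa* stood at 3803 and 3553 FPKM after HS, against 3417 and 3145 FPKM in NHS cells, without overlap, and the log2 ratio differed by -0.27 (0.12 after quantile normalization). *RpS19b*, known from germ cells of the fly, held 0.682% and 1.09% of its pair after HS, against 0.717% and 1.23% in NHS cells. It stood at 27.5 and 42.0 FPKM after HS, against 26.1 and 44.3 FPKM in NHS cells, next to *RpS19a* at 4014 and 3799 FPKM after HS, against 3611 and 3550 FPKM in NHS cells. Replicate 2 held more *RpS19b* in each condition, and the conditions overlapped.

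*RpS5b*, a paralog known from the fly ovary, was the scarcest detected member. It stood at 1.21 and 1.52 FPKM after HS, against 0.323 and 0.629 FPKM in NHS cells, next to *RpS5a* at 3581 and 3736 FPKM after HS, against 3063 and 3371 FPKM in NHS cells. It thus held 0.0337% and 0.0406% of the pair after HS, against 0.0105% and 0.0187% in NHS cells, the single pair in which the ratio was higher after HS without overlap on the deposited scale with all 4 libraries. The log2 ratio, with 1 added to each level, differed by 0.50, by 1.20 with 0.1 added and by 0.03 with 5 added, where the groups overlapped. *RpS5b* lies under the minimum for the test, at levels where FPKM rest on few reads. *RpS10a*, also known from the germ line, stood at 1.40 and 0.808 FPKM after HS, against 0.840 and 1.09 FPKM in NHS cells, and its partner was not analysed here. Of the germ line markers, *aub* and *AGO3* were the most abundant of 6 tested and ranged from 69.3 to 90.4 FPKM over the libraries. Next came *tej*, *twe*, *osk* and *bam*, which averaged 28.8, 3.70, 2.08 and 1.56 FPKM. The untested markers in the table averaged under 1 FPKM, and 3 of them were at 0 in all 4 libraries. The 14 markers of the list found in the table summed to 190 and 199 FPKM after HS, against 193 and 192 FPKM in NHS cells.

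The 3 -like genes that were detected carry ribosomal protein names but encode relatives of yeast ribosome assembly factors, *RpLP0-like* of Mrt4, *RpL24-like* of Rlp24 and *RpL7-like* of Rlp7. They stood far under their partners. *RpLP0-like* stood at 159 and 128 FPKM after HS, against 151 and 152 FPKM in NHS cells (log2 fold change -0.09, SE 0.14, limma adjusted p = 0.84), and held 6.33% and 6.30% of its pair after HS, against 6.89% and 7.96% in NHS cells. *RpL24-like* stood at 349 and 349 FPKM after HS, against 304 and 290 FPKM in NHS cells (0.23, SE 0.08, adjusted p = 0.265). *RpL24* overlapped, at 2701 and 2171 FPKM after HS and 2297 and 1948 FPKM in NHS cells. *RpL7-like* stood at 292 and 329 FPKM after HS, against 269 and 298 FPKM in NHS cells, and held 7.75% and 8.43% of its pair after HS, against 7.69% and 8.55% in NHS cells. Its partner *RpL7* stood at 3479 and 3577 FPKM after HS, against 3227 and 3183 FPKM in NHS cells, without overlap. The ratio of the last 2 pairs overlapped between conditions, and an exon of *RpL7-like* overlaps *CG34164* on the same strand.

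**Figure D4:**
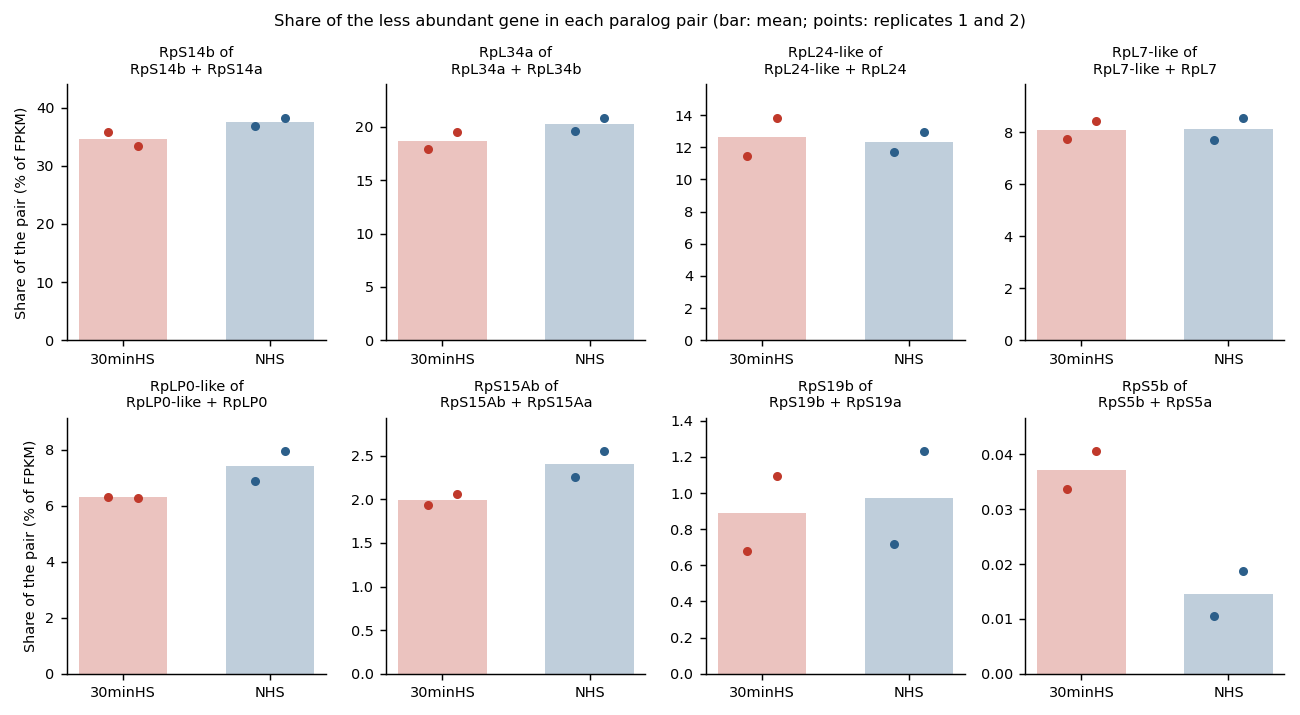
Share of the less abundant gene in the FPKM of each paralog pair (percent), with 30minHS left of NHS, bars for means and points for replicates 1 and 2. Each panel has its own axis from 0. *RpS14b* lies lower after HS (34.6% on average after HS, against 37.5% in NHS cells), as do *RpL34a*, *RpLP0-like* and *RpS15Ab* (the last 3 turn after quantile normalization), while *RpS5b* lies higher at under 0.05% of its pair.

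Of other genes of translation, 26 of 28 listed under initiation were in the table. Of 25 tested, with a median log2 fold change of 0.04, none passed an adjusted p of 0.05 in limma. At an unadjusted 0.05, 0 were higher and 1 was lower. This was *Thor*, which restrains initiation and is not an initiation factor. It stood at 50.4 and 82.6 FPKM after HS, against 211 and 268 FPKM in NHS cells (-1.86, SE 0.28, limma adjusted p = 0.0523). The 11 tested genes listed under elongation and termination had a median of 0.09 and 0 calls at either level. They include *Rack1*, *Tctp*, *Nacalpha* and *bic*, which are not such factors, at 0.20, 0.10, 0.20 and 0.15. The median is thus not that of elongation and termination factors alone. *eEF2*, the translocation factor and the most abundant of them, stood at 2169 and 2538 FPKM after HS, against 2056 and 2405 FPKM in NHS cells. *eIF4A*, the helicase of initiation, stood at 1756 and 1519 FPKM after HS, against 1668 and 1514 FPKM in NHS cells. Both overlapped.

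The 35 tested genes listed under ribosome assembly and the nucleolus had a median of 0.02. At a limma adjusted p under 0.05, 0 were lower and 1 (2.86%) was higher, against 1.75% of all tested genes. This was *Nop17l*, which is related to a yeast factor of snoRNP assembly, at 39.0 and 36.8 FPKM after HS against 16.2 and 15.6 FPKM in NHS cells (log2 fold change 1.20, SE 0.10, limma adjusted p = 0.013). Without any 1 of the 4 libraries its log2 fold change ranged from 1.16 to 1.24 and its adjusted p from 0.124 to 0.139. In those fits 26 to 64 of all genes passed 0.05, against 259 with all 4 libraries. The most abundant of the list, *kra*, a regulator of translation rather than an assembly factor, stood at 569 and 631 FPKM after HS. In NHS cells it stood at 584 and 704 FPKM.

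The mean profile of the tested members over the 4 libraries, centred on its mean, was 0.09 and 0.10 after HS and -0.11 and -0.08 in NHS cells on the log2 scale. The 3 other genes closest to it by root mean square difference, from 0.0077 to 0.0087, were *pad*, *Shawn* and *Mcm2*. *Mcm2*, a subunit of the replicative helicase, stood at 45.2 and 44.7 FPKM after HS, against 39.2 and 40.1 FPKM in NHS cells. Over 4 libraries such likeness is a description only, and 16 genes lay within 0.02.

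**Figure D5:**
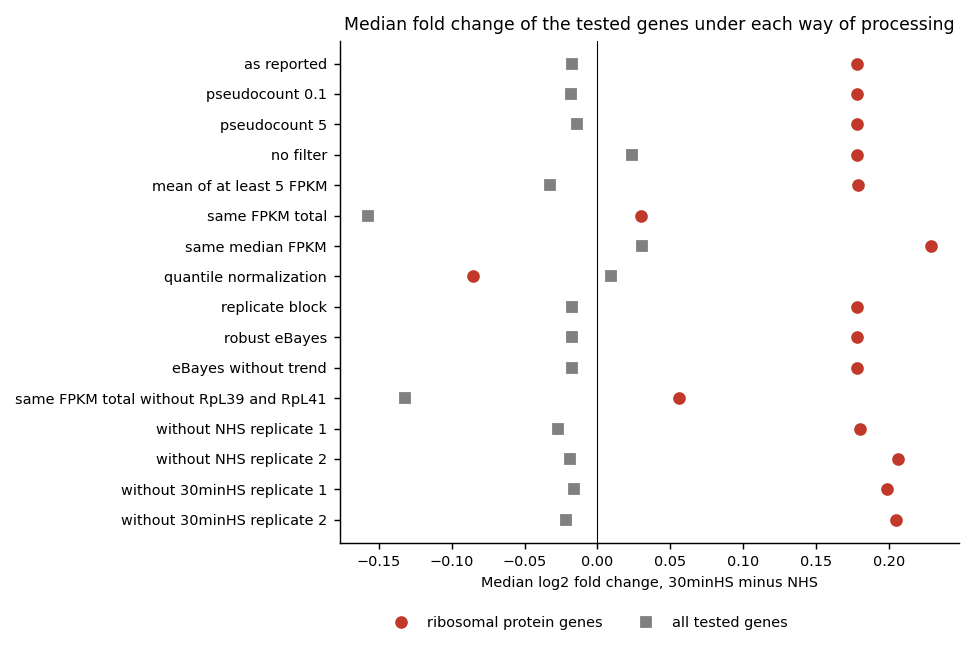
Median log2 fold change, 30minHS minus NHS, of the tested ribosomal protein genes (circles) and of all tested genes (squares) under each way of processing. The members lie above all genes in each setting except quantile normalization, where they lie at -0.09 against 0.01.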

How the data were processed

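Adapter-trimmed RNA-seq reads were aligned by the authors with TopHat2 (dm3, stranded), and Cuffnorm gave the deposited FPKM per gene and library. Versions and the scaling setting are not given in the sources used here. Deposited FPKM are not counts, depth in reads is unknown, and for mRNAs this abundant the number of libraries limits the precision. The PRO-seq samples and the authors' count test were not used here.

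Symbols, arms and transcript lengths came from the Ensembl annotation of BDGP6 (14925 genes matched, 677 did not). As this is not the files' build, no coordinates are given. Older symbols named 3 members. The genes averaging 1 FPKM or more over 4 libraries entered limma 3.58.1 in R 4.3.3 as log2(FPKM + 1) (eBayes with trend, condition as the single term, Benjamini-Hochberg adjustment over 7815 genes), and called at an adjusted p under 0.001, the FDR of the study. The fit was tested on simulated data. On this scale fold changes of scarce mRNAs are understated.

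Subunit differences, shares and paralog ratios were computed per library and compared by exact permutation. The genes named are the 5 highest and 5 lowest fold changes, the 3 most and 3 least abundant, all paralogs, undetected members, *sta*, *sop*, the stalk, 5S and fusion proteins, called or most abundant genes of the other lists and the 3 closest profiles. Other genes in the text were chosen with their values seen. The members and lists were chosen with earlier results of these data known. Alternatives covered pseudocount, filter, scaling, variance model, a replicate term and leaving out each library. A further list of 16 markers of other tissues had 1 tested gene, *elav*, and 9 reference genes had a median log2 fold change of -0.08 over 7 tested. Of these *Act5C* was the most abundant, at 7400 and 6457 FPKM after HS against 9535 and 8279 FPKM in NHS cells.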

Additional observations from a re-analysis of the deposited data

How the results depend on the processing

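No member was called at an adjusted p under 0.001 in limma in any setting run, and none passed 0.05 except with a replicate term. The members' median of 0.18 was 0.030 with the same FPKM total, 0.056 with the same total of all genes but *RpL39* and *RpL41* (a setting chosen after seeing the data), 0.23 with the same median FPKM and -0.085 after quantile normalization; pseudocount and filter moved it by less than the spread of the libraries. It ranged from 0.18 to 0.21 without any 1 library. Set against the median of all tested genes it lay 0.19 higher with the same total, 0.20 higher with the same median and 0.09 lower after quantile normalization; the cause was not tested. The 23 members at an unadjusted p under 0.05 were 3 without a filter, 6 without the variance trend, 2 with the same total, 3 with that total without *RpL39* and *RpL41*, 36 with the same median, 1 after quantile normalization (with 3 lower) and 1 to 5 without 1 library. The large minus small difference stayed between 0.01 and 0.03 in all settings, and the count of non-overlapping paralog pairs between 4 and 7. Their direction stayed at 4 lower and 1 higher with the same FPKM total or median, which could change it only through the pseudocount. After quantile normalization it was 1 lower and 4 higher of 7 pairs, with *RpS5b* left out. The values there were 0.19 for *RpL34a*, 0.16 for *RpLP0-like*, 0.12 for *RpS15Ab*, -0.083 for *RpS14b*, 0.52 for *RpL24-like* and 0.31 for *RpL7-like*. Quantile normalization gives every library the same values by rank, so it does not keep the ratio of 2 genes. It therefore cannot decide the direction within a pair.

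With the replicate number as a block, 15 members were higher at a limma adjusted p under 0.05, against 4.27% of all tested genes. *RpL39* and *RpS21* had the lowest, at 0.011 and 0.017, and 0 members passed 0.001. At an unadjusted 0.05, 68 members were higher in that fit, but the share of all tested genes at that level was not computed. The block raised the calls among all tested genes at an adjusted 0.05 from 259 to 916. Replicate 2 minus replicate 1 had the same sign in both conditions for 59 of 74 abundant members (r = 0.80, rho = 0.77). Over all 7815 tested genes this relation had r = 0.22 and rho = 0.58. This is a hint from the data only. The sources tie no number to a shared culture, and with 2 pairs the numbers were not taken as pairs. As each replicate number occurs in both conditions, the block cannot change the median of 0.18 or the subunit difference of 0.02. Of 8 paralog pairs, 6 moved the same way in both replicates.

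Fold changes of 40 named members, none of them called, were run under each alternative, and changed sign as follows. After quantile normalization they were -0.36 for *RpS10a*, -0.26 for *RpS3A*, -0.23 for *RpL24*, -0.21 for *RpL40* and *RpS14b*, -0.20 for *RpL37a*, -0.19 for *RpL35*, -0.18 for *RpS6*, -0.17 for *RpS19a*, -0.16 for *RpLP0*, -0.13 for *RpS14a*, -0.12 for *RpL22*, *RpL5* and *RpL7*, -0.11 for *RpS15Aa* and *RpSA*, -0.10 for *RpS28b*, -0.098 for *RpL37A*, -0.092 for *RpS30*, -0.091 for *RpL12*, -0.088 for *RpL10Ab*, -0.076 for *RpS5a*, -0.072 for *RpL34b*, -0.069 for *RpLP1*, -0.058 for *RpL41*, -0.055 for *RpLP2*, -0.050 for *RpL11*, -0.029 for *RpS21*, -0.025 for *RpS2*, -0.0062 for *RpS27A*, 0.010 for *RpS15Ab*. With the same FPKM total they were -0.14 for *RpS19b*, -0.13 for *RpS3A*, -0.060 for *RpL35*, -0.042 for *RpL22*, -0.034 for *RpS14b*, -0.025 for *RpL40*, -0.024 for *RpS19a*, -0.021 for *RpL34a*, -0.016 for *RpL7-like*, -0.011 for *RpL7*, -0.0077 for *RpL37a*, and with that total without *RpL39* and *RpL41* -0.12 for *RpS19b*, -0.11 for *RpS3A*, -0.033 for *RpL35*, -0.015 for *RpL22*, -0.0074 for *RpS14b*. With a pseudocount of 5, *RpS19b* was at -0.00018. Leaving out 1 library turned the sign of 6: *RpL22* ranged from -0.057 to 0.27, *RpL35* ranged from -0.085 to 0.26, *RpLP0-like* ranged from -0.24 to 0.072, *RpS10a* ranged from -0.12 to 0.29, *RpS19b* ranged from -0.37 to 0.37 and *RpS3A* ranged from -0.074 to 0.10. The turns came without HS replicate 2 (all but *RpS10a*), without HS replicate 1 (*RpS10a*) or without NHS replicate 1 (all but *RpLP0-like*). It moved 15 others by over 1.5 times with the sign kept: *RpL11* (0.12 to 0.33), *RpL24* (0.038 to 0.35), *RpL34a* (0.037 to 0.22), *RpL37a* (0.089 to 0.19), *RpL40* (0.019 to 0.23), *RpL5* (0.098 to 0.26), *RpL7-like* (0.046 to 0.22), *RpLP0* (0.0042 to 0.32), *RpLP2* (0.095 to 0.34), *RpS14b* (0.030 to 0.20), *RpS15Aa* (0.11 to 0.22), *RpS2* (0.10 to 0.34), *RpS28b* (0.0047 to 0.40), *RpS5a* (0.12 to 0.26) and *RpSA* (0.084 to 0.30). Depth limits *RpS5b* and *RpS10a*, both near 1 FPKM, most.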
